A study of Homo sapiens with 3 samples.

Results

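In wild-type KBM7 cells, 1818 strong H3K27ac peaks lay away from promoters and outside the super-enhancers that the authors had called. A peak was taken when its deposited fold enrichment was at least 8 and it shared no base with an H3K4me3 peak, a super-enhancer, or the 1 kb either side of an end of a protein-coding gene. Of 96659 H3K27ac peaks on chromosomes 1 to 22 and X, 24623 reached the fold (25.5%). Among those, 21890 met an H3K4me3 peak, a further 780 a super-enhancer and a further 135 a gene end, which left the 1818 peaks (7.38% of the strong peaks). They covered 2.39 Mb, 2.86% of all acetylated bases. The peaks were thus chosen by H3K27ac fold, lack of H3K4me3 and position, and those values are given as a description. Every other measure of the same H3K27ac peaks, such as width and fragments, is bound to the fold and is described in the same way.

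KBM7, a line grown from chronic myeloid leukaemia, has a near-haploid genome and the fusion gene BCR-ABL. Libraries of its wild-type cells, with no treatment named in the labels, number 3: H3K27ac (Abcam antibody ab4729), H3K4me3 (Millipore antibody 07-473) and an input without antibody. Each mark was measured in 1 library, so no replicate error exists and no test between samples was possible. Intervals are 95% Wilson intervals, which cover counting error only, and peaks are not replicates.

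H3K27ac is an acetylation of histone H3 that marks both active promoters and active enhancers. H3K4me3 marks promoters, so an acetylated site without it and away from gene ends is commonly read as an enhancer, a stretch of DNA bound by transcription factors that can act on a gene far away. Super-enhancers are long groups of such sites, typically found by joining neighbours and ranking the groups by signal. A strong peak can stay outside them when its surroundings carry little other acetylation.

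The name distal holds only as far as the rule goes, because promoters of non-coding RNAs and starts inside a gene record were not excluded. RefSeq promoter windows, 300 bases from 250 before a gene's start to 50 after it, were touched by 35 of the 1818 peaks (1.93%, 1.39 to 2.67). Among the 47459 distal H3K27ac peaks outside super-enhancers with a fold below 8, called the weaker distal peaks below, 350 did so (0.737%, 0.664 to 0.819). Any shared base counted, and the 1818 peaks were wider, with a median of 1134.5 bp against 291 bp. The part of width in this difference was not tested. The 35 peaks touched 38 windows, 29 of long non-coding RNA genes and 9 of protein-coding genes. The windows of 5 long non-coding RNAs held the summit itself and are shown because they are the sequence under the acetylation. They are from RefSeq (GRCh38.p14), each 5′ to 3′ on the strand of the gene, with capitals at any match on either strand to letters of known factor sites. These letters were AGATAA, as in sites of GATA factors, TGTGGT, as in those of RUNX factors, GGAAGT for ETS factors, TGACTCA for AP-1 and TTGCGCAA for C/EBP. POLR2F-AS1 is at chr22:38034179-38034478 on the minus strand, RASA2-IT1 at chr3:141524883-141525182 on the plus strand, LOC124903318 at chr14:55103280-55103579 on the minus strand, LOC105374570 at chr2:43128146-43128445 on the plus strand and LOC124900954 at chr5:32505675-32505974 on the plus strand.
POLR2F-AS1: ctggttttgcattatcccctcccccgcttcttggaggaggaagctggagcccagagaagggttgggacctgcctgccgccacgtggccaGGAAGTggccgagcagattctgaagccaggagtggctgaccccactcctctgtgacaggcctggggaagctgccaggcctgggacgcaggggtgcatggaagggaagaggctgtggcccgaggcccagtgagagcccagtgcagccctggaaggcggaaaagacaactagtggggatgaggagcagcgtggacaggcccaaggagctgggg
RASA2-IT1: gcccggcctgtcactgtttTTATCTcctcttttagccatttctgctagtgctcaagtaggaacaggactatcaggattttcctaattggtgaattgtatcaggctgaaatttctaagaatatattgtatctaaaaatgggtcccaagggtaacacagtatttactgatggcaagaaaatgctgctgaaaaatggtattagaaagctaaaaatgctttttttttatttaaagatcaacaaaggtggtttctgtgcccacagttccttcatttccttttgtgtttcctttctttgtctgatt
LOC124903318: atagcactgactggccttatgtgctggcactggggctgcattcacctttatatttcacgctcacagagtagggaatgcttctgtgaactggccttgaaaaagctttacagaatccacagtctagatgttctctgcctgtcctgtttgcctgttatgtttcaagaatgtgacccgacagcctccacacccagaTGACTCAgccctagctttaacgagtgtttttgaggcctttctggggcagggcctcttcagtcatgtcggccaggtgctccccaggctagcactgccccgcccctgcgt
LOC105374570: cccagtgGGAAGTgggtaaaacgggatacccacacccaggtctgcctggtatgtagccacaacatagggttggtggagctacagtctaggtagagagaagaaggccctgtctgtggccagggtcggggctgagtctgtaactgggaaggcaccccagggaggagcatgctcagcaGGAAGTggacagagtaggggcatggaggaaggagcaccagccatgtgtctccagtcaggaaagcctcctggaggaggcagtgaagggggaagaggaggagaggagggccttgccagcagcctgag
LOC124900954: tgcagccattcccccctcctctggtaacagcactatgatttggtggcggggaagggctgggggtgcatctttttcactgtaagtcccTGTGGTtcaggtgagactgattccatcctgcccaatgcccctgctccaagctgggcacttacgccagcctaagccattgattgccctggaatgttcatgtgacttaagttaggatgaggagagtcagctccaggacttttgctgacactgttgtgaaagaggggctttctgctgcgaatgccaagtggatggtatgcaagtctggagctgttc
The summit at POLR2F-AS1 (fold 21.2, 81 fragments, peak of 2000 bp) lay on the start position itself. The other summits lay between 147 bp before the start, at RASA2-IT1 (fold 12.1), and 44 bp after it, at LOC124903318 (fold 11.5). LOC105374570 had a fold of 9.08 and LOC124900954 a fold of 8.05. Each window held 1 match except that of LOC105374570, with 2 copies of GGAAGT, and the letters differed: GGAAGT at POLR2F-AS1, AGATAA on the other strand at RASA2-IT1, TGACTCA at LOC124903318 and TGTGGT at LOC124900954.

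CpG is the dinucleotide that is dense in most promoters with H3K4me3. At the median, the long non-coding RNA windows touched by the strong distal peaks held few, as did such windows in general. Of the 29 long non-coding RNA windows, 2 also touched an H3K4me3 peak beside the H3K27ac peak, and none of the 5 shown did. The other 27 had a median of 4 CpG (interquartile range 2.5 to 7.5) and a GC content of 49%. Among all long non-coding RNA windows, the 3226 that touched an H3K4me3 peak had a median of 25 (15 to 34), and the 9195 that touched neither mark had 3 (1 to 6). All 12829 long non-coding RNA windows had a median of 5 (2 to 16) and a GC content of 50%. The 27 windows thus lay near the unmarked ones, and near long non-coding RNA windows in general, in median CpG content. They were taken for touching no H3K4me3 peak, so their difference from the marked windows is a description.

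Their motif shares lay near those of long non-coding RNA windows in general. AGATAA occurred in 5 of the 27 (18.5%) against 14.5% of all 12829 long non-coding RNA windows and 10.3% of all 34961 windows. TGTGGT occurred in 4 (14.8%) against 16.2 and 13.1%, and GGAAGT in 6 (22.2%) against 20.9 and 22.8%. TGACTCA occurred in 2 (7.41%) against 6.49 and 4.92%, and TTGCGCAA in 0 against 0.0624 and 0.152%. Each motif was searched on both strands and apart from the others, so a base may count for more than 1.

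The median fold of the 1818 peaks was 9.74 (interquartile range 8.68 to 11.6, highest 39.2), from a median of 45 fragments at the summit (37 to 57, range 30 to 197). The median width was 1134.5 bp (770.25 to 1678.75). Most lay close to the threshold: 602 had a fold of 8 to 9 and 404 of 9 to 10, while 106 had 15 to 20 and 29 had 20 or more. Just inside were sites nearest to RASSF2, ZFP90 and TULP4, each with a fold of 8.004 from 34 fragments. Just outside were sites nearest to USP25 (7.999) and to ST3GAL3 and DAGLB (both 7.997), each with 36 fragments.

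The strongest site of all lay 145 kb from LMCD1, which encodes a LIM-domain transcriptional cofactor. It spanned chr3:8355212-8357260, inside the long non-coding RNA gene LMCD1-AS1, and had a fold of 39.2 from 197 fragments over an expected background of 4.05. Another peak next to it, chr3:8357334-8358972, had a fold of 27.02, and the nearest H3K4me3 lay 144 kb from the first summit. Within 60 kb either side there were 34 H3K27ac peaks, 4 of them of the strong distal set, and no H3K4me3 peak. The highest of the other peaks there had a fold of 7.45. The nearest super-enhancer, assigned by the authors to BHLHE40, was 3318 kb away. LMCD1 itself had H3K4me3 at an end (fold 10.1) and no H3K27ac peak there.

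Next came a site 50.3 kb from SATB1, the gene of a chromatin organiser of lymphoid and progenitor cells, at chr3:18293974-18296703 (fold 34.3, 172 fragments). It lay 28.9 kb from a super-enhancer that the authors assigned to SATB1 and ranked 15 in their table. Joined at 12500 bp, the H3K27ac peaks around it made 1 region of 173 peaks and 420110 bp, the longest of those holding strong distal peaks. Within 60 kb the highest other peak, inside that super-enhancer, had a fold of 15.5. The highest fold within that distance was thus outside the called region.

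At chr5:54403089-54406525, 50.8 kb from HSPB3, a small heat-shock protein gene of muscle, the fold was 29.2 from 110 fragments. HSPB3 had neither mark at its ends, the nearest H3K4me3 was 78.7 kb away, and the 7 other H3K27ac peaks within 60 kb had folds of 5.76 or less. A site 20.2 kb from TRH, the gene of thyrotropin-releasing hormone, reached 29.9 at chr3:129952299-129956501, again with neither mark at the ends of the gene. Both genes are known from other tissues, and position alone does not make them targets.

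Inside FTO, which encodes an RNA demethylase, the widest peak of the set ran over 6822 bp at chr16:53944890-53951711 (fold 26.9, 123 fragments). It lay 175 kb from the ends of the gene and 91.6 kb from a super-enhancer assigned to FTO. The adjoining peak was of the set as well, with a fold of 9.59. A peak of the other kind, with H3K4me3 beginning 45.2 kb from the summit, had folds of 20.3 for H3K27ac and 8.48 for H3K4me3. A site 59.9 kb from CACNA2D1, an auxiliary subunit gene of calcium channels, ran over 6258 bp at chr7:81880942-81887199 with a fold of 27.1. Its nearest super-enhancer, 92.0 kb away, was assigned to HGF, the gene of hepatocyte growth factor.

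**Figure D1:**
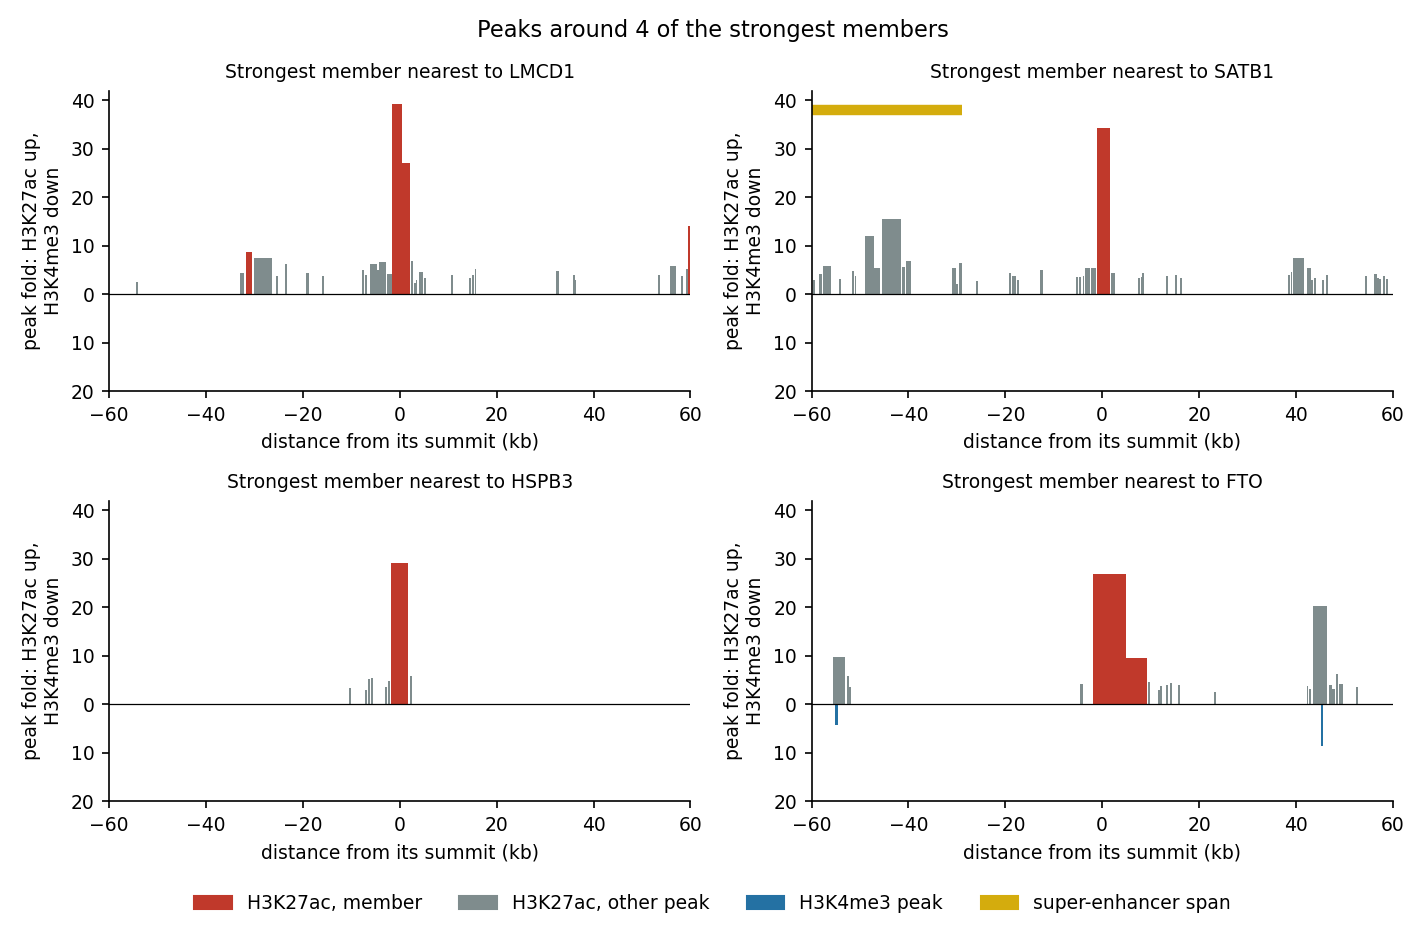
H3K27ac peaks within 60 kb of the strongest peak nearest to LMCD1, SATB1, HSPB3 and FTO, drawn as bars over their position with height as fold (red, strong distal peaks; grey, other H3K27ac peaks), with H3K4me3 peaks drawn downward in blue and super-enhancers in yellow. The windows of LMCD1 and HSPB3 hold no H3K4me3, and the grey peaks in them have folds of 7.45 or less and 5.76 or less.

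The other sites among the 10 of highest fold differed in their setting. A peak 41.9 kb from NUDT7, a peroxisomal hydrolase gene, had a fold of 28.2, and its summit was 706 bp from an H3K4me3 peak. At chr2:89188698-89190399, inside the immunoglobulin kappa locus IGK and 438 kb from RPIA, the fold was 26.3. At chr1:11907808-11908235 a peak of 428 bp with a fold of 27.02 covered an end of RNU5E-1, a gene of the spliceosomal U5 small nuclear RNA, 145 bp from the summit. H3K4me3 lay 253 bp from that summit. For RNU5E-1 the annotation thus goes against the name distal.

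Among the widest peaks were also sites 67.2 kb from HAAO (5566 bp, fold 20.3), 67.8 kb from SSBP2 (5482 bp, fold 11.9) and inside LAMA3, a laminin chain gene (5310 bp, fold 15.1). The one near HAAO, an enzyme gene of tryptophan breakdown, was 37.0 kb from a super-enhancer assigned to ZFP36L2. The peak in LAMA3 was the only H3K27ac peak of its joined region, 149 kb from the nearest H3K4me3. The peaks farthest from any end of a protein-coding gene were nearest to MAT2B (1667 kb), LOC124900173 (1643 kb), LOC105372073 (1531 kb), NCAM2 (1165 kb) and EPHA3 (1127 kb), with folds of 10.7, 16.3, 10.8, 8.54 and 16.9. Of these, only the site nearest to LOC124900173 had H3K4me3 within 1 kb, at 385 bp.

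The strong distal peaks lay inside protein-coding gene records less often than the weaker distal peaks. This held for 844 of 1818 (46.4%, 44.1 to 48.7) against 61.0% (60.5 to 61.4) of the 47459 weaker peaks, and 47.3% (43.7 to 51.0) of the 729 strong distal peaks in super-enhancers. The share was 53.0% at a fold of 8 to 9 and 17.2% of the 29 peaks at 20 or more. From the summit to the nearest end of a protein-coding gene the median was 25474 bp, with the middle of the set from 9160 to 68152.5 bp, against 20373 bp for the weaker peaks and 29589 bp in super-enhancers. Over 100 kb from any end were 368 (20.2%, 18.5 to 22.2) against 14.3% (14.0 to 14.6) of the weaker peaks and 18.1% (15.5 to 21.1) in super-enhancers. The intervals take each peak as independent, though peaks of 1 locus share their surroundings, so overlap of intervals is no test between the sets. Peaks of 1 library do not stand for other cultures of these cells.

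H3K4me3 was, at the median, farther from the set than from either compared set. The nearest H3K4me3 peak stood at a median of 8853.5 bp from the summit, against 5318 bp for the weaker distal peaks and 4581 bp for the strong ones in super-enhancers. More than 50 kb separated 247 peaks from it (13.6%, 12.1 to 15.2), against 8.26% of weaker peaks and 0.274% (0.0753 to 0.995) of those in super-enhancers. At the other end, 241 (13.3%, 11.8 to 14.9) had H3K4me3 within 1 kb of the summit without touching it, against 15% and 10.4%. By the rule no peak of these sets touched H3K4me3, so a wider peak can keep its summit farther from it. Median widths were 1134.5, 291 and 1613 bp. The distances are thus a description, and the part of width in them was not tested.

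**Figure D2:**
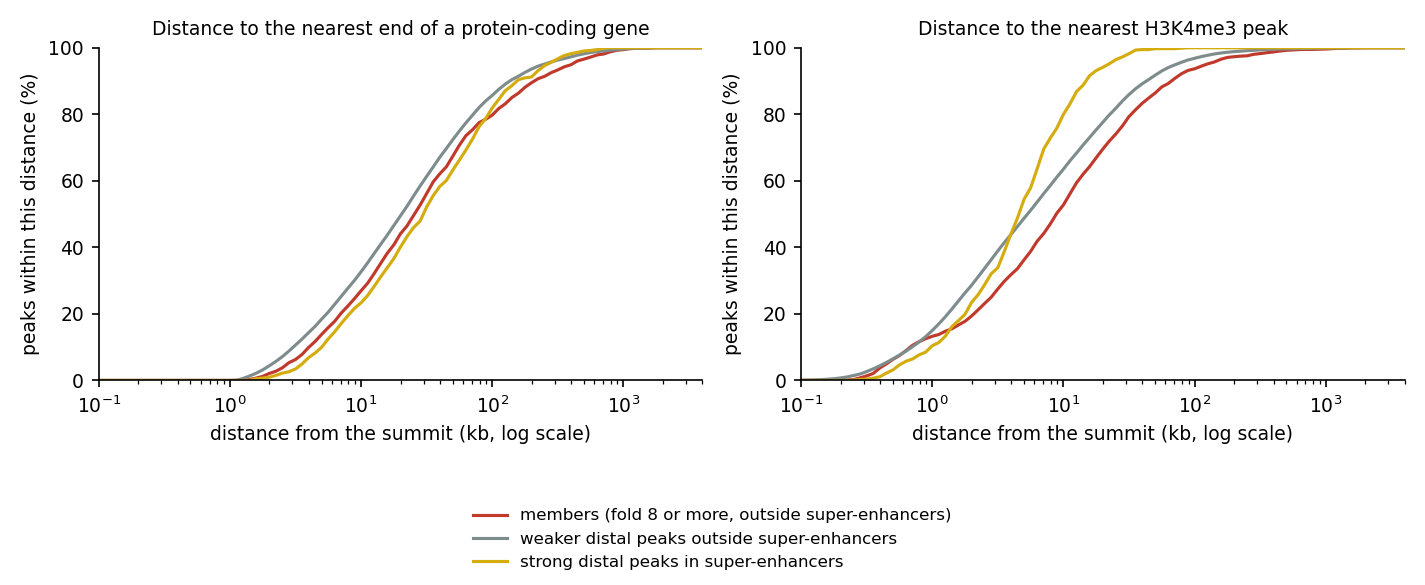
Cumulative share of peaks (%) against the distance from the summit (kb, log scale) to the nearest end of a protein-coding gene and to the nearest H3K4me3 peak, for the strong distal peaks (red), the weaker distal peaks (grey) and the strong distal peaks in super-enhancers (yellow). The red curve for H3K4me3 runs to the right of both others beyond a few kb, with medians of 8853.5, 5318 and 4581 bp.

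Most of the strong distal peaks stood alone among their like. No other of the set lay within 12500 bp of 1412 (77.7%, 75.7 to 79.5). Counted within their own sets, 14.5% of the 47459 weaker distal peaks and 46.6% of the 729 in super-enhancers stood alone. The sets differ in number and spread, and the part of this in the shares was not tested. Within the 1818 peaks, 79.9% stood alone at a fold of 8 to 9 and 51.7% at 20 or more. The strong distal peaks were, however, rarely without other acetylation. Joined with all H3K27ac peaks at 12500 bp, they fell into 1506 regions, of which 96 (6.37%) held a single peak. The median such region had 7 peaks, was 17021 bp long and had 5849 bp under peaks. The super-enhancers of the authors had medians of 19 peaks, 41563.5 bp and 23285.5 bp under peaks. A strong distal peak was the highest in 657 of the 1506 regions (43.6%), and in 1018 (67.6%) at least 1 peak overlapped H3K4me3. The set holds 1257 regions with 1 of its peaks, 207 with 2 and 42 with 3 or more.

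By length, 310 of the 1506 regions (20.6%) reached the median super-enhancer, and by bases under peaks 147 did. Of the 1506, 66 touched a super-enhancer themselves, that near SATB1 among them. The other 1440 had medians of 7 peaks and 15803 bp, and of these 244 (16.9%) reached the median super-enhancer by length and 82 by bases under peaks. The closest edge of any of the peaks to a super-enhancer was 13.5 kb away, whereas the closest summit of a weaker distal peak was 60 bp from one. Only 23 super-enhancers had exactly the borders of a region joined here. The reason was not tested. Within 100 kb of a super-enhancer lay 251 (13.8%, 12.3 to 15.5) against 18.2% (17.9 to 18.6) of the weaker peaks, and over 1 Mb from any lay 1001 (55.1%). Position outside super-enhancers was part of the rule, and the band up to 13.5 kb from one held none of the set. These shares are thus a description, and the part of that band in them was not tested.

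**Figure D3:**
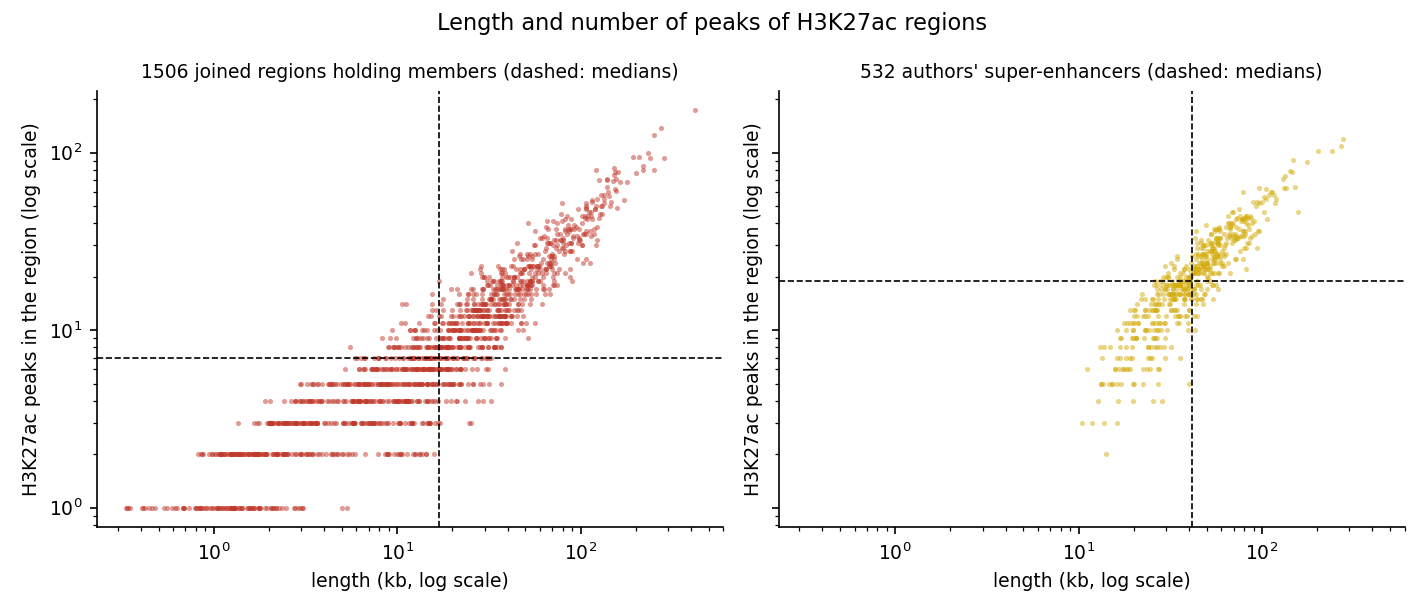
Number of H3K27ac peaks against length (kb), both on log scales, for the 1506 joined regions that hold strong distal peaks and for the super-enhancers of the authors, 1 point a region, with dashed lines at the medians. The medians are 7 peaks and 17021 bp against 19 peaks and 41563.5 bp, part of the first cloud reaches the range of the second, and 66 of the 1506 regions touch a super-enhancer.

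Each peak was assigned to the protein-coding gene nearest to its summit, which is a position and not evidence that it acts on that gene. The 1818 peaks had 1349 nearest genes, 6.75% of the 19974 protein-coding genes, against 44.6% for the far more numerous weaker peaks. Of the 1349 genes 1033 were nearest to 1 peak, 216 to 2 and 100 to 3 or more. Both marks stood at an end of 1020 (75.6%, 73.2 to 77.8) against 77.8% of the genes nearest to weaker peaks and 60.4% of all genes. Neither mark was at an end of 219 (16.2%, 14.4 to 18.3) against 14.6% and 30.4%. Per peak, the nearest gene had H3K4me3 at an end for 78.6% (76.7 to 80.4) against 84.5% (84.2 to 84.8) of weaker peaks, and 66.7% of all genes had it. This share was 82.9% for peaks inside a gene and 71.3% (65.5 to 76.4) for those over 100 kb from their nearest gene. Starts inside a gene record count as unmarked here.

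The 10 genes nearest to most of the peaks had 5 to 10 each. Around PTPRC, which encodes the leukocyte phosphatase CD45, 6 peaks with folds of 8.54 to 14.8 lay 338 to 486 kb from the gene, in a stretch of 149.6 kb. PTPRC is itself a target in the authors' table. NRP1, a co-receptor gene for semaphorins and vascular endothelial growth factor, had 6, at 51.4 to 333 kb on both sides and with folds up to 15.1. TBL1XR1, a gene of nuclear corepressor complexes and another super-enhancer target, had 6 at 19.1 to 580 kb, up to 12.7. CACNA1C, the pore subunit gene of an L-type calcium channel, held 5 inside it with folds of 9.43 to 19.2 and had neither mark at its ends. ARHGAP26, which encodes a GTPase-activating protein, held 5 inside it, up to 12.3. PDGFC, a growth factor gene, had 5 at 106 to 255 kb, up to 13.0, and LINGO2 had 5 reaching 1088 kb away, up to 11.0.

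The remaining entries of that top 10 all come from chromosome 2. LOC124907854 was nearest to 10 peaks and PLGLB2 to 7, all between positions 87198072 and 87595505. Inside the long non-coding RNA gene NCAL1 lay 16 of them, of which 6 were also inside CYTOR. LOC124907867 was nearest to 5 peaks inside MIR4435-2HG. CYTOR and MIR4435-2HG are known as near-identical copies, between which the authors' alignment could split or misplace reads. All of these peaks had the lowest expected background of the list, 2.80, and folds of 8.16 to 16.8. The part of sequence similarity in them was not tested. Among other non-coding hosts, LMCD1-AS1 held 4 (folds 8.65 to 39.2), LOC107985670 on the X chromosome held 4, IGK held 4 (11.1 to 26.3) and the immunoglobulin heavy chain locus IGH held 4 (12.47 to 20.8), all within 1 kb of an end of IGHV3-13 or IGHV3-11. Without the peaks in NCAL1, MIR4435-2HG, IGK and IGH, an exclusion chosen after seeing the data, the set held 1789 peaks, of which 47.2% lay inside a protein-coding gene and 78.8% had no other of the set within 12500 bp.

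Within lists of genes with known roles, set beside the 6.75% of all protein-coding genes, the regulators of blood cells were nearest to a strong distal peak in 8 of 40 cases (20%, 10.5 to 34.8). RUNX3, a RUNX factor of lymphoid and myeloid cells, had a site of fold 21.7 at 26.5 kb (chr1:24871255-24873425, 94 fragments) and another of 9.94 at 7.43 kb. MEF2C, a factor of myeloid and lymphoid development, had 3, the highest (12.7) 410 kb away. ERG and FLI1, ETS factors of stem cells and megakaryocytes, had sites of up to 11.5 inside ERG and 10.6 at 26.7 kb from FLI1. The summit of fold 11.5 in ERG lay 639 bp from an H3K4me3 peak. RUNX3, MEF2C, ERG and FLI1 are all targets of super-enhancers in the authors' table. The others were SPI1, RUNX1, MEF2D and MEIS1, with folds of 9.51 or less. Weaker peaks were nearest to 33 of the 40 genes (82.5%), beside 44.6% of all genes, and to 90% of the signalling, 80% of the T and NK cell and 72% of the chromatin and elongation genes of the lists below.

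Stem and progenitor genes had 4 of 22 (18.2%, 7.31 to 38.5). They were KIT, the receptor of stem cell factor, with a site of fold 13.9 at 60.4 kb (chr4:54800887-54802287), SPINK2 (11.0, its summit 612 bp from an H3K4me3 peak), NPR3 (10.2, at 122 kb) and FLT3, the receptor of FLT3 ligand (9.73, inside the gene). Genes of BCR-ABL, cytokine and survival signalling had 5 of 30 (16.7%, 7.34 to 33.6). This was 3 of 30 both when the nearest gene was taken by its nearer end and when peaks with H3K4me3 within 1 kb were left out. Among them, ABL1 held sites of 11.5 and 8.49, BCR held 1 of 9.51, BCL6 had 1 of 10.0 at 53.1 kb and SOCS3, a feedback inhibitor of cytokine signals, had 1 of 8.49 at 27.3 kb. Both partners of the leukaemic fusion thus held peaks of the set. Their normal genome positions do not tell a fused from an unfused copy. The summit in BCR lay 648 bp from an H3K4me3 peak, and those in ABL1 lay 11.6 and 10.2 kb from one.

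Mediator is the complex that passes signals from factors at enhancers on to the polymerase, and 7 of its 33 genes were nearest to a strong distal peak (21.2%, 10.7 to 37.8). MED4 had 3, at 9.36, 49.7 and 61.5 kb with folds of 19.7, 15.5 and 14.7. MED18 had 1 of 10.5, MED12, of the kinase module, held 10.3 and 8.32 inside it, and MED13L had 9.91 and 9.76 at over 100 kb. CCNC, MED14 and MED8 had folds of 9.04 or less. Weaker peaks were nearest to 22 of the 33 Mediator genes (66.7%) and 13 of the 22 progenitor genes (59.1%), beside 44.6% of all genes. The median fold was 9.91 for the Mediator list, 9.69 for the blood regulators, 10.6 for the progenitor genes and 9.77 for the signalling genes, beside 9.74 over all 1818 peaks. B cell genes had 2 of 16 (interval 3.50 to 36.0%), with EBF1 (13.2 and 8.28, inside the gene) and PAX5 (10.8 at 28.1 kb, 20.6 kb from a super-enhancer assigned to PAX5). The summit of fold 13.2 in EBF1 lay 285 bp from an H3K4me3 peak.

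By the rule used, the other lists stood near or below the background, but the counts of several moved with the rule. Granulocyte and monocyte genes had 1 of 24 (4.17%, 0.739 to 20.2), and erythroid and megakaryocyte genes 1 of 24, GP9 with 10.3. Mast cell and basophil genes had 1 of 14, IL1RL1 with 9.04, and T and NK cell genes 1 of 20, BCL11B with 9.21 at 130 kb. Chromatin and elongation genes had 1 of 25, CDK9 with 8.53, and skeletal muscle genes 1 of 20, TNNI2 with 9.99. Housekeeping genes had 1 of 30 (3.33%, 0.591 to 16.7), B2M, the light chain of class I molecules, with a site of fold 20.6 at 6.92 kb (chr15:44723175-44725791). That summit lay 948 bp from an H3K4me3 peak. Neuronal and hepatocyte genes had 0 of 20 each, with an interval up to 16.1%. The intervals are wide, and gene length and spacing were not taken into account. With overlap judged at the summit alone, T and NK cell genes had 6 of 20 and mast cell and basophil genes 3 of 14. Erythroid and megakaryocyte genes then had 3 of 24 and chromatin and elongation genes 3 of 25, beside 8.88% of all genes. The other lists of this paragraph kept their counts. At a minimum fold of 6, T and NK cell genes had 7 of 20, beside 14.8%. At 10 they had 0, beside 3.37%. Of the 449 super-enhancer targets among protein-coding genes, 92 were nearest to a strong distal peak (20.5%), which makes them 6.82% of the 1349 genes against 2.25% of all genes.

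**Figure D4:**
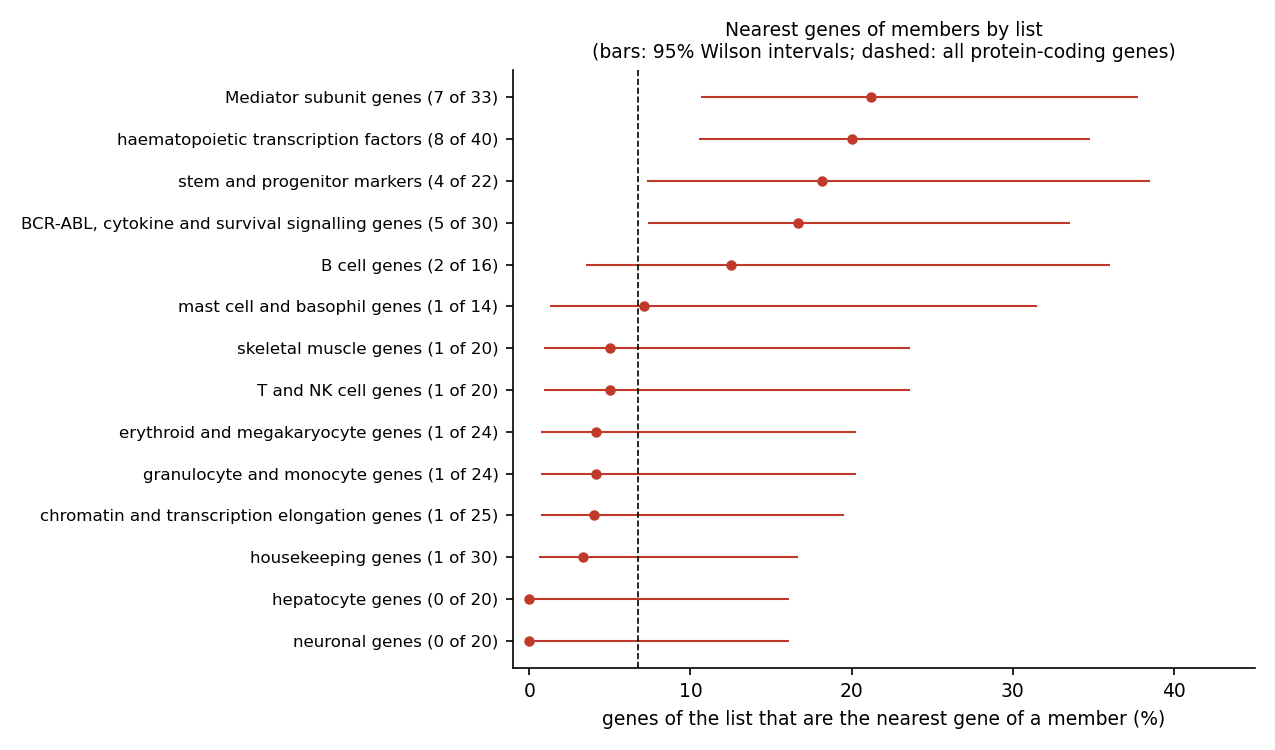
Share of each gene list (%) that was the nearest protein-coding gene of a strong distal H3K27ac peak, as points with 95% Wilson intervals, beside the share over all protein-coding genes (dashed, 6.75%). Mediator genes (7 of 33) and blood regulators (8 of 40) lie highest, and neuronal and hepatocyte genes are at 0 of 20.

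Within 1 kb of an end of a non-coding gene lay 155 of the peaks (8.53%, 7.33 to 9.90) against 6.10% (5.89 to 6.32) of weaker distal peaks and 9.33% (7.42 to 11.7) of those in super-enhancers. Long non-coding RNA genes accounted for 101 (5.56%, 4.59 to 6.71) against 3.89% (3.72 to 4.07) of weaker peaks, pseudogenes for 44 and V segments for 4. Any base of a peak within 1 kb of an end counted, not the summit alone. Median widths were 1134.5 bp for the set, 291 bp for the weaker peaks and 1613 bp in super-enhancers. The part of width in these shares was not tested. At ends of snoRNA genes there were 3 (0.165% against 0.137% of weaker peaks) and of miRNA genes 2 (0.110% against 0.358%). At ends of snRNA genes there was 1 (0.0550% against 0.0147%) and of tRNA genes 0 (against 0.0421%). None of 1558 annotated miRNA hairpins touched a peak of the set. The set covered only 2.39 Mb, and hairpins were not counted for the weaker peaks. By fold the leading non-coding genes were RNU5E-1 (27.02), POLR2F-AS1 (21.2), IGHV3-13 (20.8), IGHV3-11 (18.6), the pseudogene MARK2P6 (18.6) and LINC01077 (17.6). The summit lay in a long non-coding RNA gene for 327 (18.0%, 16.3 to 19.8) against 13.9% of weaker peaks, and in neither a protein-coding nor a long non-coding gene for 713 (39.2%, 37.0 to 41.5) against 29.2%. The 9 protein-coding windows touched were those of PTPRO, GPR146, C10orf71, CFLAR, TMEM127, MFSD6, CDH23, SIGLECL1 and AJUBA, with folds of 8.33 to 10.2. In PTPRO, a receptor phosphatase gene, the summit lay 71 bp after the start, and in CDH23 14 bp after it.

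The strong distal peaks were unevenly spread over chromosomes. Of the distal peaks outside super-enhancers 3.69% reached fold 8 on all chromosomes together. On chromosome 8 this was 32 of 2091 (1.53%, 1.09 to 2.15), on chromosome 15 it was 37 of 1835 (2.02%, 1.47 to 2.77) and on X it was 101 of 1890 (5.34%, 4.42 to 6.45). The median expected background of distal peaks, which enters the fold, was 6.54 fragments on chromosome 8, 4.72 on 15 and 3.54 on X. Chromosome 19 had the lowest background (2.87) and the third lowest share (2.90%), and chromosome 4 had 4.91% at 3.63 fragments. At those medians a fold of 8 needs 60 fragments on chromosome 8 and 45 on 15, against 36 on the other chromosomes. Counted by at least 37 fragments in place of the fold, a choice made after seeing the low share, the order turned: 251 of 2091 distal peaks (10.7 to 13.5%) passed on chromosome 8 and 7.41% on 15, against 4.48% on the others. Chromosome 8 thus had the lowest share by fold and, beside chromosome 15 and the pooled others, the highest by fragments. The part of the raised background in this was not tested.

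**Figure D5:**
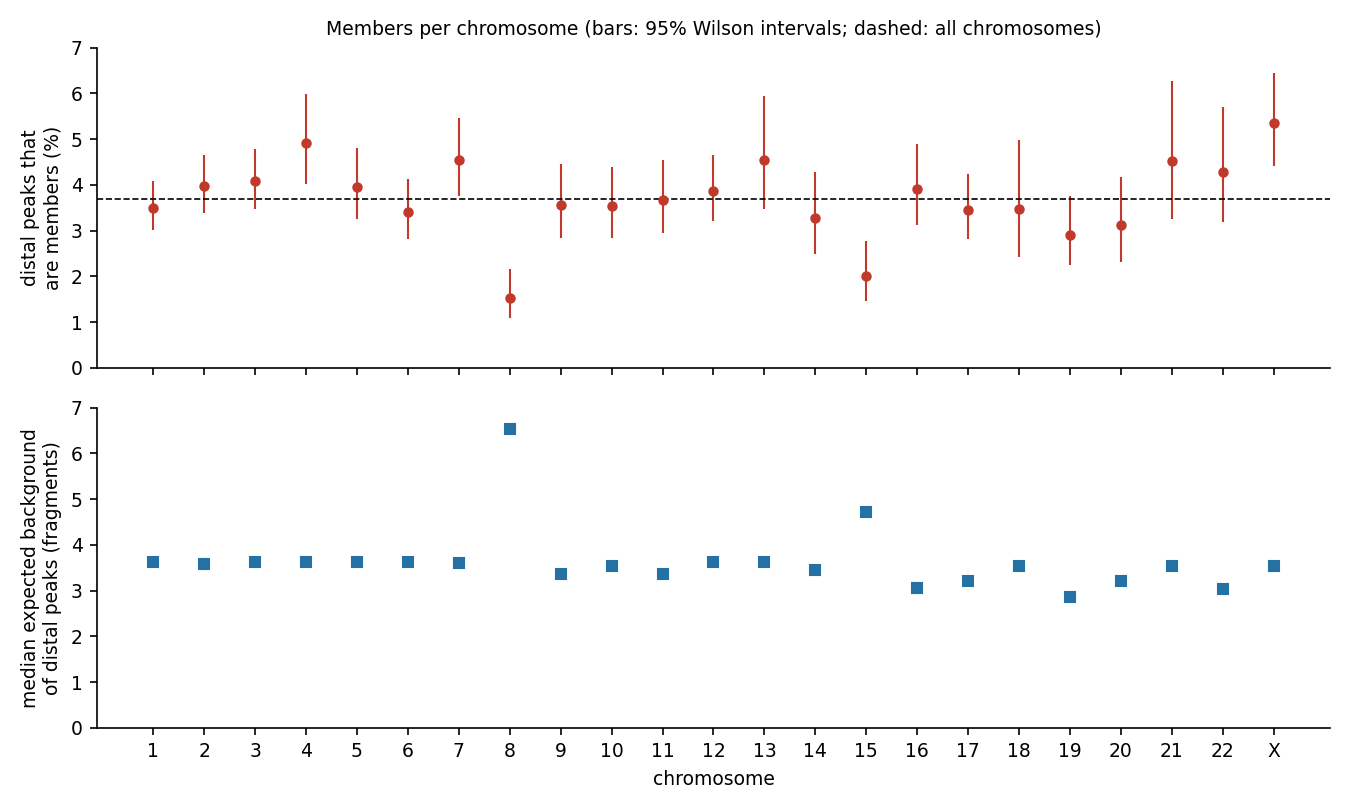
Share of distal H3K27ac peaks outside super-enhancers that reached fold 8 (%, points with 95% Wilson intervals; dashed, all chromosomes) and the median expected background of distal peaks (fragments) for each chromosome. Chromosomes 8 and 15 have the lowest shares and the highest backgrounds, 6.54 and 4.72 fragments.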

How the data were processed

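ChIP-seq peaks of H3K27ac and H3K4me3 in KBM7 cells, 1 library each, and a super-enhancer table were used. Reads were processed with Bowtie2 2.3.4 and bedtools 2.20.1 on hg38, per the submitters' processing notes. The peak caller, the super-enhancer caller and the library sizes were not given in the sources used here. Deposited peak lists give the fold enrichment (a ratio), the −log10 of p and q at the summit, a score that is a multiple of the −log10 q, and the summit position. This fold of the authors served only to choose, rank and describe peaks within a list. In the super-enhancer table the authors give, per the file headers, an H3K27ac and an input signal, a difference score and a rank. The signals and the score entered no result directly. The rank, given above for the super-enhancer near SATB1, is by H3K27ac minus input signal. Whether the input library also entered the super-enhancer calls or the deposited fold is not known here.

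Fragments and the expected background at each summit were worked out from the deposited fold, taken as (fragments + 1)/(expected + 1), and the deposited p, taken as the upper Poisson tail. Whole fragments were found for 100% of peaks in each compared set, within 0.01 on the −log10 scale. The script was tested on simulated data. Gene positions (19974 protein-coding genes), promoter windows and hairpins came from RefSeq (GRCh38.p14, the same build). The gene table has no strand, so both ends of a gene stand for its start. Peaks overlapped when they shared 1 bp. Motifs under the peaks themselves were not searched, since no genome was used here.

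The peaks and 14 lists of 336 genes were chosen with earlier results of these data known. Named peaks were the 10 of highest fold, the 5 widest, the 5 farthest from a gene end and the 3 on each side of the threshold. Named genes were the 10 nearest to most peaks, up to 4 a list by fold and up to 6 non-coding genes. POLR2F-AS1 aside, those with printed sequence were named because the summit lay in the window. Other genes of a list, other host genes and the 9 protein-coding windows were named to account for small counts, after their values were seen. Python 3.11.15, numpy 2.4.6, pandas 2.3.3, scipy 1.17.1 and matplotlib 3.10.9 were used. Other settings of the fold, the windows and the overlap rules were tried, and 2 of them were added after seeing the data. Some genes of the lists are counted but not reported here by name.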

Additional observations from a re-analysis of the deposited data

Results flagged for a closer look

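A signal outside the analysed chromosomes was found on an unplaced sequence of chromosome 14. There, 1 H3K27ac peak had a fold of 10.8 and met no H3K4me3 peak. It has no annotated position relative to genes or super-enhancers and was left out of the set. With no replicate, whether it recurs was not tested.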

How the results depend on the processing

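The 1818 peaks depended most on the fold and on what counts as H3K4me3. With a minimum fold of 6, 10 and 12 there were 5121, 812 and 391 peaks. The share inside a gene body was then 51.6, 41.1 and 37.1%, the median distance to a gene end 23127, 30414.5 and 34459 bp, the share alone within 12500 bp 59.6, 85.1 and 89.3%, and the share of genes nearest to a peak 14.8, 3.37 and 1.71%. The share alone was counted only among the peaks that each minimum kept. Among the 1818 peaks it was 79.9% at a fold of 8 to 9 and 51.7% at 20 or more. Chromosomes 8 and 15 held 3.80% of the 1818 peaks, 2.59% at fold 10 and 1.53% at fold 12, and at fold 12 the nearest gene had H3K4me3 at an end for 76.0%.

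When only H3K4me3 peaks above the median fold of their list excluded a peak there were 5725, with 53.4% inside a gene, 23385 bp to a gene end, 60.2% alone, 11.98% within 100 kb of a super-enhancer, 81.2% with H3K4me3 at the nearest gene, 16.1% of genes nearest and 5.78% on chromosomes 8 and 15. When at least 50% of the peak had to be covered there were 5551, with 52.3% inside a gene, 21798 bp, 58.5% alone, 81.6% with H3K4me3 at the nearest gene, 15.7% of genes nearest and 5.71% on chromosomes 8 and 15. By the summit alone the distance was 23454 bp, 74.5% stood alone and 8.88% of genes were nearest.

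Gene-end windows of 5 and 10 kb gave distances of 33325 and 44383 bp and 5.57 and 4.68% of genes nearest. That share was 6.25% when ends of every gene excluded a peak, 5.66% with no H3K4me3 within 1 kb and 18.9% for genes within 100 kb. The share alone was 83.9% at 5 kb and 63.4% at 50 kb, and a super-enhancer lay within 50 kb of 7.10% and within 200 kb of 20.2%. With fragments in place of the fold, a choice made after seeing the data, there were 2420 peaks, 1410 of them among the 1818, with 29206 bp, 69.9% alone, 7.99% of genes nearest and 16.0% on chromosomes 8 and 15. The cause of these changes was not tested. Of the counts of list genes nearest to a peak under these settings, 150 stayed within 1.5 times the count given above and 88 moved beyond it, among them many counts of 1.

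No paired analysis was possible because each mark has 1 library. Library sizes were not known, so depth was read only from fragments at the summit, and a fold of 8 needs from 30 fragments at the lowest expected background to 116 at the highest among the 1818 peaks.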
